A study of Arabidopsis thaliana with 4 samples.

Results

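LINE copies are the long interspersed elements among the annotated transposons of *Arabidopsis thaliana*, and the counts described here are the reads assigned to each of them in rosettes of *jmj26* and of Col-0. The members were the transposon rows of the count tables whose superfamily name starts with LINE, which gave 1447 of 31189 annotated transposon copies. Of these, 1366 are named LINE/L1 and fall into 11 families, and the other 81 are named LINE alone and form the family TSCL. The 4 poly(A)-selected RNA-seq libraries came from whole rosettes at the nine-leaf stage, from plants stratified for 2 days at 4°C in the dark and then kept on soil at 21°C in days of 16 h light. There were 2 libraries of *jmj26*, a T-DNA insertion line (SALKseq_069498.1) of the jmjC-domain gene *JMJ26*, and 2 of Col-0, the wild type. A single insertion line was used, and nothing in the labels says whether the libraries of a genotype came from separate plants, so every p-value measures the spread between these libraries only.

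LINEs are retrotransposons without long terminal repeats. A full-length element carries a reading frame for a nucleic acid-binding protein and another for a protein with endonuclease and reverse transcriptase activity, and it moves by nicking a target site and copying its own RNA into that site. Copying often stops early, so many annotated copies lack their start and cannot make these proteins. In plants LINE copies are normally kept silent by DNA methylation and by methylation of histone H3 at lysine 9. *JMJ26* encodes a protein of the family of jmjC histone demethylases to which IBM1, a demethylase that protects genes from such methylation, also belongs.

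The transposon rows carry an identifier, a family and a superfamily but no position, length or sequence, and the identifier gives the chromosome. Counts of different copies are therefore compared as counts held by a copy and not as levels per length. Among the gene rows of the same tables, those annotated as non-LTR retrotransposons give a second reading of this kind of element. In the RefSeq TAIR10.1 annotation 32 genes are described in this way and 25 of them have a row in the tables. AT4G02000, a protein-coding gene annotated as Ta11-like non-LTR retrotransposon, held most of their counts, and the start of its coding sequence (TAIR10.1, chr4:874959-875258, plus strand) is shown to identify that element, with the start codon in capitals:
AT4G02000: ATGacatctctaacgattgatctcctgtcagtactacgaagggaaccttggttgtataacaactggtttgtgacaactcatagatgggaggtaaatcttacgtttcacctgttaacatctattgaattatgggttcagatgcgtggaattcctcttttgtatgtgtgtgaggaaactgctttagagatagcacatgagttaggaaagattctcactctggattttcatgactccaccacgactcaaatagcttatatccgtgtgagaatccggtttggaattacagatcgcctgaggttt
The gene spans 874880 to 876181 on chromosome 4, its coding sequence ends at 875903, and no other annotated gene overlaps it.

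Total counts were 1998601 and 1497105 in *jmj26* replicates 1 and 2, against 1022041 and 740909 in Col-0 replicates 1 and 2. A floor of 3 counts equals 1.501 and 2.004 CPM (counts scaled to the total of the library) in *jmj26* and 2.94 and 4.05 CPM in Col-0, and intervals and floors cover counting error only. *JMJ26* itself had 0 and 2 counts in *jmj26* and 1 and 0 in Col-0, all under the floor, so the genotype labels could not be checked from it. All 5 rosette leaf marker genes, which encode photosynthesis proteins, were counted in every library. Together they held 1139 and 1042 CPM in *jmj26*, against 209 and 517 CPM in Col-0. All 5 were higher in *jmj26*, with log2 fold changes between 0.85 and 2.08. None had a false discovery rate below 0.05 in the edgeR test described below. Unadjusted p in that test was 0.00068 for *CAB1*, 0.010 for *PSBO1*, 0.016 for *RCA*, 0.038 for *RBCS1A* and 0.18 for the other gene. Of all gene rows, 24.9% lie across from an annotated gene of the other strand, but these held 92.4% and 92.5% of gene counts in *jmj26*, against 95.7% and 94.5% in Col-0. The strand setting of the counting is not given in the sources used here, so reads running along a LINE copy and reads running against it cannot be told apart. *jmj26* replicate 2 stood apart from the other 3 libraries: of 846 transposon rows tested, 17 were more than 3 times as high there as in the highest other library and 68 were lower by the same factor than the lowest other library, together 10.05% of rows. The corresponding share was 0.473% in *jmj26* replicate 1, 1.06% in Col-0 replicate 1 and 2.60% in Col-0 replicate 2. Of these 68 rows, 51 had no count in *jmj26* replicate 2 and at least 1 in each other library. The deposited file of this library also bears another leading number in its name than the other 3, and what the number stands for is not stated.

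The first question was how much of the RNA counted in these rosettes falls on LINE copies. It was little in every library, and the genotypes were not separated. LINE copies held 2980 and 2459 counts in *jmj26*, against 1943 and 1182 counts in Col-0. As a share of all counts this was 0.149% (95% Wilson interval 0.144 to 0.155) and 0.164% (0.158 to 0.171) in *jmj26*, against 0.190% (0.182 to 0.199) and 0.160% (0.151 to 0.169) in Col-0. The interval of Col-0 replicate 1 lay above the other 3, whereas Col-0 replicate 2 fell between the *jmj26* libraries. The mean was 0.157% ± 0.0107 in *jmj26* and 0.175% ± 0.0216 in Col-0 (SD, n = 2 each), a difference of -0.0181 percentage points with p = 0.667 in a two-sided exact permutation test, which cannot go below 0.333 with these numbers. Without *jmj26* replicate 2 the difference was -0.0257 percentage points.

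Of the counts on transposons alone, LINE copies took 0.867% and 0.920% in *jmj26*, against 1.09% and 0.735% in Col-0. Both *jmj26* libraries lay between the Col-0 libraries. The mean share was 0.894% ± 0.0374 in *jmj26* and 0.913% ± 0.251 in Col-0 (SD, n = 2 each), with a difference of -0.0189 percentage points (p = 1 in the two-sided exact permutation test). The sign of this difference depended on single libraries: it was 0.159 percentage points without Col-0 replicate 1, 0.00748 without *jmj26* replicate 1, -0.0454 without *jmj26* replicate 2 and -0.197 without Col-0 replicate 2.

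LINE copies make up 4.64% of the annotated transposon copies and therefore held fewer counts per copy than the rest. The mean over LINE copies was 1.03 and 1.14 CPM per copy in *jmj26*, against 1.31 and 1.10 in Col-0, while transposon copies other than LINE averaged 5.73 and 5.95 CPM per copy in *jmj26*, against 5.80 and 7.25 in Col-0. LTR/Gypsy copies, long terminal repeat elements, averaged 8.15 and 11.03 CPM per copy in *jmj26*, against 8.96 and 8.78 in Col-0. LTR/Copia copies averaged 3.22 and 2.999 CPM per copy in *jmj26*, against 3.32 and 3.19 in Col-0. SINE and RathE copies, where SINEs are short elements that move with the proteins of LINEs, averaged 0.793 and 1.29 CPM per copy in *jmj26*, against 0.978 and 0.750 in Col-0. These averages depend on element length, which is not in the tables.

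Most LINE copies had no read at all. Of the 1447 copies, 993 (68.6%) had no count in any library, against 75.3% of all transposon copies, and 454 had at least 1. Only 69 copies were counted in all 4 libraries, 74 in 3, 95 in 2 and 216 in a single library, and the highest count among the last was 6. Although LINE copies held fewer counts per copy, a larger share of them was counted: 18.7% and 16.6% in *jmj26*, against 14.7% and 12.5% in Col-0, where the copies of other transposons reached 14.2% and 11.8% in *jmj26*, against 10.6% and 10.01% in Col-0. In each of the 4 libraries the share of LINE copies was the higher of the pair. LTR/Copia copies were counted more often still, 20.9% and 17.4% in *jmj26*, against 15.2% and 14.4% in Col-0. Of the LTR/Copia copies, 68.2% had no count in any library.

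More LINE copies were counted in *jmj26*, 271 and 240 copies, than in Col-0, 212 and 181, but the order of the genotypes followed the depth of the libraries. When every library was brought to the depth of the shallowest, 740909 counts, the expected number was 158 and 165 copies in *jmj26*, against 177 and 181 in Col-0. The order of the genotypes was then reversed and they again did not overlap, with means of 162 ± 4.95 copies in *jmj26* and 179 ± 2.89 in Col-0 (SD, n = 2 each), a difference of -17.0 copies (two-sided exact permutation test, p = 0.333, the smallest possible). At a common depth of transposon counts, 160845, the expected number was 181 and 184 copies in *jmj26*, against 200.5 and 181 in Col-0, with overlap and a difference of -8.07 copies (two-sided exact permutation test, p = 1). At the common depth of all counts, the number over all transposon copies was also lower in *jmj26*, with 2796 and 2720 copies expected in *jmj26*, against 2881 and 3157 in Col-0. LINE copies were 5.67% and 6.08% of these in *jmj26*, against 6.14% and 5.73% in Col-0, so as a share of the counted transposons the genotypes overlapped. Counting only copies with at least 3 counts at the common depth left 40.7 and 47.2 copies in *jmj26*, against 42.8 and 42.0 in Col-0, a difference of 1.59 copies, so the difference lay among copies with 1 or 2 counts.

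**Figure D1:**
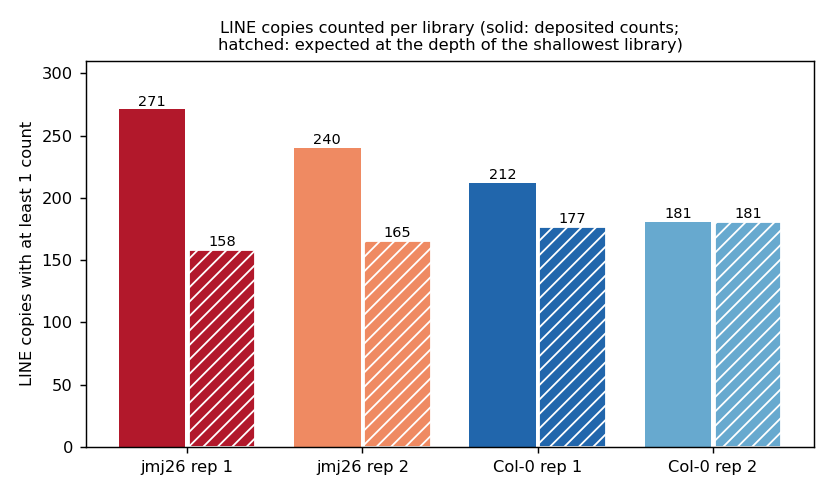
Number of LINE copies with at least 1 count (y axis) in each library (x axis), as deposited (solid bars) and expected at 740909 counts (hatched bars). The deposited numbers are highest in *jmj26* (271 and 240, against 212 and 181 in Col-0), and the hatched bars are lowest in *jmj26* (158 and 165, against 177 and 181 in Col-0).

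Copies counted in one genotype only carried few reads. There were 365 copies with a count in *jmj26* and 295 with a count in Col-0, and 206 were in both sets, which is 56.4% of the *jmj26* set and 69.8% of the Col-0 set. The deeper *jmj26* libraries counted 159 copies that Col-0 did not, and Col-0 counted 89 that *jmj26* did not. A stricter set, with both *jmj26* libraries counted and neither Col-0 library, held 24 copies. The highest were AT5TE60480 (TA11) with 4 and 9 counts, AT3TE45390 (ATLINE1_4) with 5 and 4, AT2TE27645 (TA11) with 1 and 6, AT5TE12450 (ATLINE1_1) with 3 and 3, and AT2TE10925 (ATLINE2) with 2 and 3 in *jmj26* replicates 1 and 2. In the opposite set, with both Col-0 libraries counted and neither *jmj26* library, there were 8 copies, led by AT4TE27245 (ATLINEIII) with 2 and 2 counts and AT2TE00480 (TSCL), AT2TE18025 and AT2TE26275 (both ATLINE1_6) with 2 and 1 each in Col-0 replicates 1 and 2. At these depths no difference in detection of a single copy could be shown, since none of these copies passed the filter on low counts. The same sets were not counted over all transposon copies, so their sizes are not read as a trait of LINE copies.

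The LINE counts were concentrated on few copies. AT2TE18800, of the family ATLINE1_6, alone held 31.9% and 20.4% of LINE counts in *jmj26*, against 29.4% and 23.8% in Col-0. The 3 highest copies of each library held 54.7% and 44.4% in *jmj26*, against 54.2% and 44.1% in Col-0. The 10 highest held 71.0% and 71.5% in *jmj26*, against 71.4% and 65.9% in Col-0. At the other end, 180 and 161 copies in *jmj26*, against 160 and 139 in Col-0, were counted with 1 or 2 reads. AT2TE18800 ranked first in all 4 libraries, and AT3TE06550 (ATLINE2) ranked second except in *jmj26* replicate 2, where it had rank 3. AT3TE58085 (ATLINE2) had rank 9 in *jmj26* replicate 1 and rank 2 in *jmj26* replicate 2, against ranks 12 and 5 in Col-0.

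By chromosome the counts did not follow the number of copies. Chromosome 2, with 344 copies, held 46.4% and 35.0% of LINE counts in *jmj26*, against 44.2% and 44.2% in Col-0. Chromosome 3, with 291 copies, held 23.0% and 38.3% in *jmj26*, against 25.8% and 25.8% in Col-0. Chromosome 5 has 307 copies but held 7.68% and 7.89% of LINE counts in *jmj26*, against 6.79% and 7.45% in Col-0. The higher share of chromosome 3 in *jmj26* replicate 2 went with 2 copies, AT3TE58085 and AT3TE58700, which are described below.

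All but 1 of the 12 families were counted in every library, and ATLINE1_6 was the largest by counts. To compare families, the counts of all copies of a family were summed, scaled by the trimmed mean of M-values (TMM) and tested together with the gene rows by the quasi-likelihood test of edgeR, with p-values adjusted after Benjamini and Hochberg over all 5435 rows (false discovery rate, FDR). Of the 11 LINE families tested, 0 had FDR below 0.05, against 0.0552% of all rows and 0 of 203 transposon families. Unadjusted, 2 families had p below 0.05, both with lower values in *jmj26*, beside 13 of 203 transposon families (6.4%, with 3.94% lower). Over all rows of that fit the share was 14.8%, with 1.84% lower. DESeq2 gave 0 LINE families past FDR 0.05 and 1 with unadjusted p below 0.05 (9.09%). Beside these were 1 (0.493%) and 10 (4.93%) of the 203 transposon families. The log2 fold change of *jmj26* over Col-0 was below 0 in 10 of 11 LINE families, against 64.5% of transposon families. Both *jmj26* libraries were below both Col-0 libraries in 3 of 11 families, against 25.6% of transposon families and 18.2% of all rows. The log2 fold changes had a median of -0.16 over LINE families and -0.091 over all transposon families.

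ATLINE1_6, with 129 copies of which 48 were counted, had 1359 and 782 counts in *jmj26*, against 837 and 428 in Col-0. After scaling, this was 687 and 533 CPM in *jmj26*, against 835 and 611 CPM in Col-0, and the groups overlapped (log2 fold change -0.25, SE 0.21, FDR 0.712). AT2TE18800 supplied 67.6% of this family's counts. ATLINE2, with 138 copies of which 51 were counted, had 507 and 673 counts in *jmj26*, against 398 and 224 in Col-0. In CPM it was 256 and 459 in *jmj26*, against 397 and 320 in Col-0, so the Col-0 libraries lay inside the range of *jmj26*. Its log2 fold change was -0.0091 (SE 0.28), was -0.48 without *jmj26* replicate 2 and turned positive with upper quartile scaling (0.031) and with library totals (0.038).

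ATLINE1A is the largest family by copies, with 289, of which 64 were counted. It had 128 and 123 CPM in *jmj26*, against 213 and 157 CPM in Col-0, so both *jmj26* libraries were below both Col-0 libraries. Its log2 fold change was -0.57 (SE 0.18), with FDR 0.210 in edgeR's test over all rows. ATLINE1_2, with 41 copies and 35 and 23 counts in *jmj26*, against 42 and 15 in Col-0, was the other family with p below 0.05. It had 17.7 and 15.7 CPM in *jmj26*, against 41.9 and 21.4 CPM in Col-0, a log2 fold change of -0.96 (SE 0.35, edgeR FDR 0.270). Without Col-0 replicate 2 its FDR was 0.0416, with a log2 fold change of -1.41, and 3 of 228 transposon families were called in that fit. Without Col-0 replicate 1 the log2 fold change was -0.48.

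TA11 was the family with the highest fold change and the only 1 above 0 with TMM scaling, and it was split within *jmj26*. It had 76.3 and 203 CPM in *jmj26*, against 79.8 and 129 CPM in Col-0 (log2 fold change 0.43, SE 0.47, edgeR FDR 0.792). Without *jmj26* replicate 2 its log2 fold change was -0.43. ATLINE1_3A was lower in both *jmj26* libraries, with 76.8 and 37.5 CPM in *jmj26*, against 78.8 and 99.98 CPM in Col-0 (log2 fold change -0.62, SE 0.35, edgeR FDR 0.523), but *jmj26* replicate 1 was close to Col-0 replicate 1. The log2 fold change of ATLINE1_3A was -0.21 without *jmj26* replicate 2 and -1.26 without *jmj26* replicate 1.

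The remaining families overlapped between the genotypes. ATLINE1_1 had 95.5 and 116 CPM in *jmj26*, against 106 and 121 CPM in Col-0. ATLINEIII, with the most counted copies of any LINE family (79 of 196), had 83.4 and 72.9 CPM in *jmj26*, against 68.8 and 104 CPM in Col-0. ATLINE1_5 had 48.0 and 63.4 CPM in *jmj26*, against 60.8 and 62.8 CPM in Col-0. In these 3 families the log2 fold changes were between -0.16 and -0.10, and each was smaller than its standard error. ATLINE1_4 had 20.7 and 31.4 CPM in *jmj26*, against 36.9 and 18.6 CPM in Col-0 (log2 fold change -0.15, SE 0.38). TSCL had 16.7 and 21.1 CPM in *jmj26*, against 19.9 and 42.8 CPM in Col-0 (log2 fold change -0.69, SE 0.40, edgeR FDR 0.532). It was -1.31 without Col-0 replicate 1 and -0.18 without Col-0 replicate 2. TA12 has 2 annotated copies and no count in any library.

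**Figure D2:**
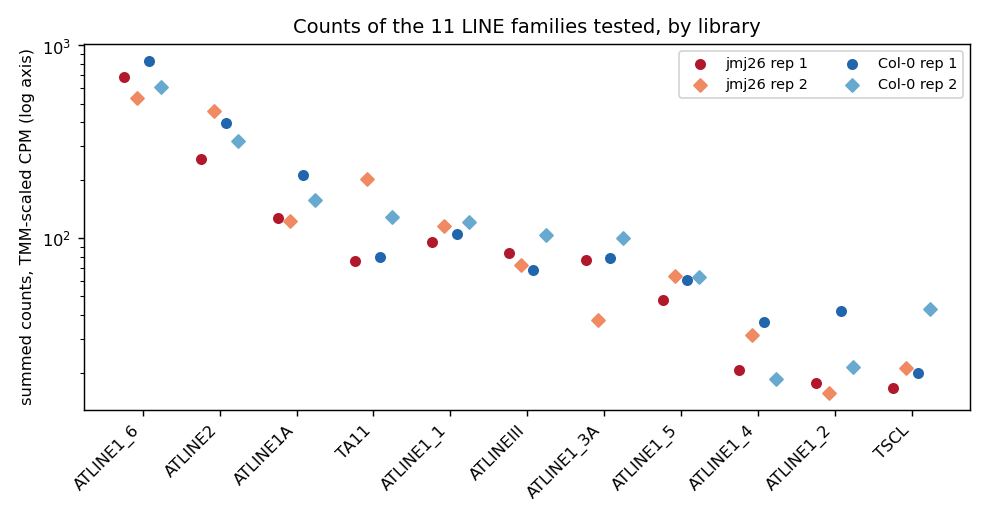
Summed TMM-scaled CPM (y axis, log scale) of the 11 LINE families that were tested (x axis, ordered by counts), with 1 point per library. ATLINE1A (128 and 123 CPM in *jmj26*, against 213 and 157 in Col-0), ATLINE1_2 and ATLINE1_3A have both *jmj26* points below both Col-0 points, whereas for TA11 the points of *jmj26* lie on both sides of those of Col-0.

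ATLINE1_6 ranked first and ATLINE2 second among the families in every library, but their shares of the LINE counts varied. ATLINE1_6 took 45.6% and 31.8% of LINE counts in *jmj26*, against 43.1% and 36.2% in Col-0. ATLINE2 took 17.0% and 27.4% in *jmj26*, against 20.5% and 19.0% in Col-0. TA11 took 5.07% and 12.1% in *jmj26*, against 4.12% and 7.61% in Col-0. For all 3 families the 2 *jmj26* libraries differed by more than the 2 Col-0 libraries.

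**Figure D3:**
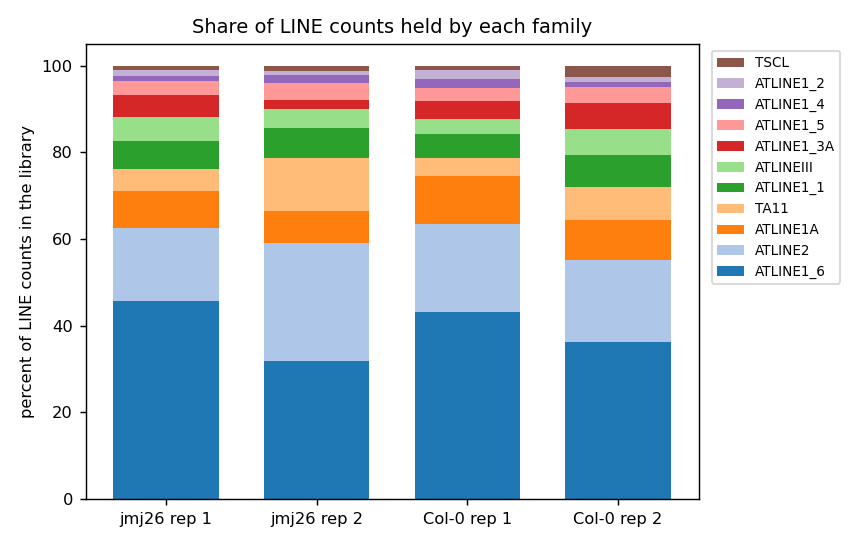
Percent of the LINE counts of a library (y axis) held by each family (stacked colours) in each of the 4 libraries (x axis). The share of ATLINE1_6 at the base is 45.6% and 31.8% in *jmj26*, against 43.1% and 36.2% in Col-0, and the wider bands of ATLINE2 and TA11 (27.4% and 12.1%) are those of *jmj26* replicate 2.

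The last comparison asked whether single LINE copies differed between *jmj26* and Col-0, and none passed the test. Of the 1447 copies, 24 passed edgeR's filter on low counts, and these held 6877 of the 8564 LINE counts (80.3%). They were fitted with all other rows, 6078 in all. The lowest sum over the 4 libraries among them was 32 counts and the highest sum among the 1423 untested copies was 41. A row passes this filter when it is high enough in 2 libraries, which can be those of a single genotype. With edgeR's quasi-likelihood test 0 of 24 had FDR below 0.05, against 0.0823% of all rows and 0.355% of transposon rows. At an unadjusted p below 0.05 there were 6 of 24, of which 1 was higher and 5 were lower in *jmj26*, beside 8.04% of transposon rows (3.43% higher and 4.61% lower). Over all rows fitted the share was 12.7%, with 10.9% higher and 1.78% lower. DESeq2 also gave 0 copies past FDR 0.05, and 1 copy with unadjusted p below 0.05, beside 7 and 45 of the 846 transposon rows. Without *jmj26* replicate 2 edgeR again called 0 copies, and 2 of 28 had unadjusted p below 0.05 (7.14%), beside 0 called and 57 with unadjusted p below 0.05 of 853 transposon rows (6.68%).

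The log2 fold changes of the tested copies were below 0 in 17 of 24, against 58.4% of transposon rows. Their median was -0.29, against -0.077 over all 846 transposon rows tested and 0.022 over gene rows. Both *jmj26* libraries were below both Col-0 libraries in 8 of 24 copies, against 20.4% of transposon rows, and above them in 2 of 24, against 12.9%. Over all rows fitted the shares were 18.3% below and 25.2% above. These shares are partly set by the filter on low counts, which a row can pass through a single genotype. AT1TE10615, AT3TE46185 and AT3TE66100 passed it through Col-0 only, and AT3TE45385 through *jmj26* only. The spread within genotypes was large beside the differences between them: the ratio of the higher to the lower library had a median of 1.25 in *jmj26* and 1.45 in Col-0, and it passed 3-fold in 4 copies within *jmj26*, the copy with no count in a library included, and in 2 copies within Col-0. Levels of a transposon in whole rosettes do not tell fewer cells with its RNA from less RNA per cell.

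**Figure D4:**
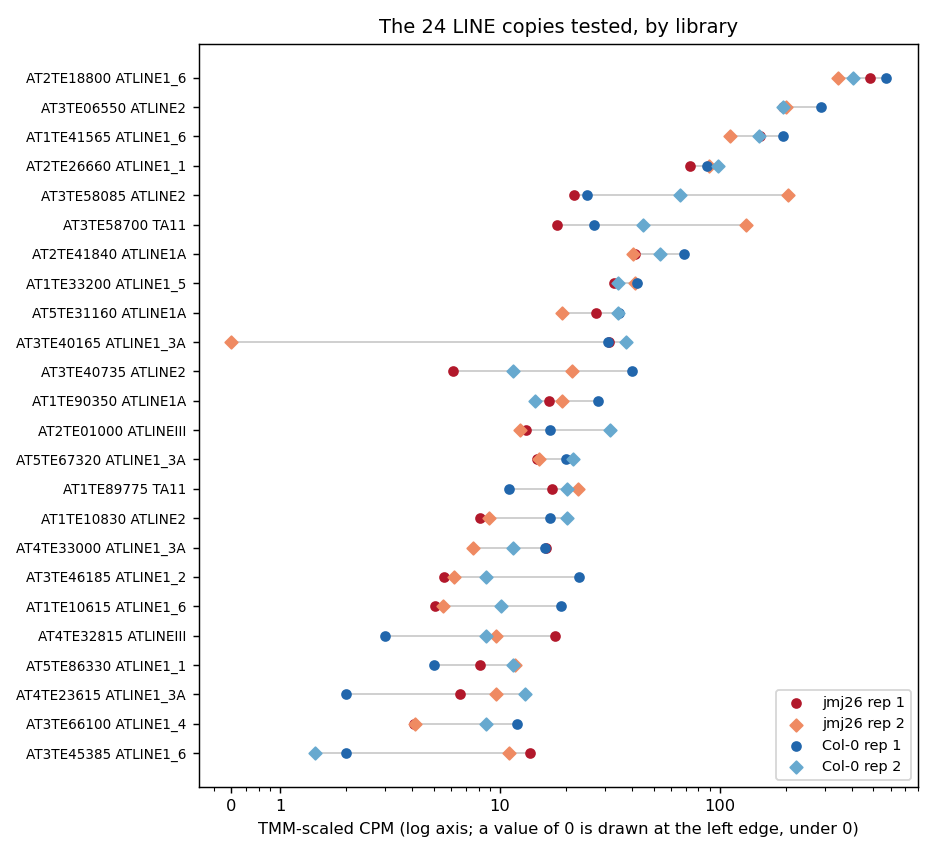
TMM-scaled CPM (x axis, log scale with 0 at the left edge) of the 24 LINE copies tested (y axis, ordered by mean), with 1 point per library and a line over their range. The points of *jmj26* and Col-0 are mixed in most copies. AT3TE45385 at the bottom has both *jmj26* points to the right (13.7 and 10.98 CPM, against 2.00 and 1.44 in Col-0), and *jmj26* replicate 2 lies far from the other libraries in AT3TE58085, AT3TE58700 and AT3TE40165.

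None of the 4 copies with the most counts passed the test between the genotypes. AT2TE18800 (ATLINE1_6, chromosome 2) had 950 and 501 counts in *jmj26*, against 571 and 281 in Col-0, which is 482 and 344 CPM in *jmj26*, against 570 and 405 CPM in Col-0. The groups overlapped, and the log2 fold change was -0.24 (SE 0.24). AT3TE06550 (ATLINE2, chromosome 3) had 194 and 201 CPM in *jmj26*, against 288 and 194 CPM in Col-0, where only Col-0 replicate 1 was apart (log2 fold change -0.29, SE 0.22). AT1TE41565 (ATLINE1_6, chromosome 1) had 152 and 111 CPM in *jmj26*, against 194 and 151 CPM in Col-0 (log2 fold change -0.39, SE 0.22). AT2TE26660 (ATLINE1_1, chromosome 2) had 73.1 and 89.2 CPM in *jmj26*, against 87.8 and 97.9 CPM in Col-0 (log2 fold change -0.19, SE 0.19). For these 4 copies the edgeR FDR lay between 0.585 and 0.799, and leaving out single libraries kept each log2 fold change below 0. The sizes were less stable: for AT2TE18800 the log2 fold change was -0.015 without *jmj26* replicate 2 and -0.55 without Col-0 replicate 2. For AT1TE41565 it was -0.19 without *jmj26* replicate 2, and for AT3TE06550 it ran from -0.63 to -0.080 with libraries left out in turn.

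AT3TE45385 (ATLINE1_6, chromosome 3) had the smallest p and the highest fold change of the 24. It had 27 and 16 counts in *jmj26*, against 2 and 1 in Col-0, so both Col-0 libraries were at or under the floor of 3 counts while both *jmj26* libraries were well above it. The copy thus passed the filter on low counts through its *jmj26* libraries only. Its place among the 24 was therefore partly set by the same difference that its p-value and ratio describe. The ratio of the pooled CPM was 7.23, with an exact 95% counting interval of 2.31 to 36.4. The fitted log2 fold change was 2.75 (SE 0.53, edgeR FDR 0.255), with FDR between 0.197 and 0.966 over the other settings that kept the filter. Without the filter on low counts it was called, with FDR 0.0126, in a fit that called 114 of 7703 transposon rows (1.48%). Leaving out single libraries moved the log2 fold change between 2.50 and 2.93, and without *jmj26* replicate 2 it was 2.89. The row after it, AT3TE45390 of ATLINE1_4, had 5 and 4 counts in *jmj26* and none in Col-0, and the row before it, a Helitron copy, had no count in *jmj26* and 2 and 0 in Col-0. AT4TE32815 (ATLINEIII, chromosome 4) was the other copy with both *jmj26* libraries above Col-0. It had 35 and 14 counts in *jmj26*, against 3 and 6 in Col-0, which is 17.8 and 9.61 CPM in *jmj26*, against 2.99 and 8.64 CPM in Col-0. Its log2 fold change was 1.36 (SE 0.61, edgeR FDR 0.455), and *jmj26* replicate 2 was close to Col-0 replicate 2. The log2 fold change was 0.57 without Col-0 replicate 1 and 2.09 without Col-0 replicate 2.

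Of the next 2 copies by fold change, both on chromosome 3, each was high in *jmj26* replicate 2 alone. AT3TE58085 (ATLINE2) had 43 and 297 counts in *jmj26*, against 25 and 46 in Col-0. After scaling, this was 21.8 and 204 CPM in *jmj26*, against 24.9 and 66.2 CPM in Col-0. *jmj26* replicate 1 was thus the lowest of the 4 libraries and replicate 2 the highest, a 9.34-fold difference within the genotype. The log2 fold change was 1.33 (SE 1.05, edgeR FDR 0.724) and became -1.01 without *jmj26* replicate 2. AT3TE58700 (TA11) showed the same arrangement, with 18.3 and 132 CPM in *jmj26*, against 26.9 and 44.6 CPM in Col-0. Its log2 fold change was 1.07 (SE 0.91, edgeR FDR 0.751) and became -0.93 without that library. Without both copies the difference in the LINE share of all counts, *jmj26* minus Col-0, was -0.0287 percentage points (p = 0.333 in the two-sided exact permutation test).

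AT3TE40165 (ATLINE1_3A, chromosome 3) was the only tested copy with no count in a library. It had 62 and 0 counts in *jmj26*, against 31 and 26 in Col-0, and the 31.5 CPM of *jmj26* replicate 1 were close to the 30.9 and 37.4 CPM of Col-0. With all libraries the log2 fold change was -1.02 (SE 1.14, edgeR FDR 0.816). Without *jmj26* replicate 2 it was -0.10. Without *jmj26* replicate 1, so that the library with 0 counts stood for the genotype, the copy had an FDR of 0.0116 in edgeR's test. It was 1 of 27 LINE copies called in that fit (3.70%), where 67 of 911 transposon rows were called (7.35%).

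The 5 copies with lower values in *jmj26* and unadjusted p below 0.05 each had both *jmj26* libraries below both Col-0 libraries. AT1TE10615, AT3TE66100 and AT3TE46185 passed the filter on low counts through their Col-0 libraries only. For these copies the order of the genotypes was therefore partly set by the filter. AT1TE10830 (ATLINE2, chromosome 1) had 16 and 13 counts in *jmj26*, against 17 and 14 in Col-0. After scaling it had 8.12 and 8.92 CPM in *jmj26*, against 17.0 and 20.2 CPM in Col-0 (log2 fold change -1.11, SE 0.32, edgeR FDR 0.267). AT1TE10615 (ATLINE1_6) is the row before it in the tables and had 5.08 and 5.49 CPM in *jmj26*, against 19.0 and 10.08 CPM in Col-0 (log2 fold change -1.50, SE 0.44, edgeR FDR 0.280). These 2 copies thus follow each other in the order of identifiers on chromosome 1, and the distance between them is not known. Leaving out single libraries kept their log2 fold changes between -1.34 and -1.05 for AT1TE10830 and between -1.92 and -1.03 for AT1TE10615.

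AT3TE66100 (ATLINE1_4, chromosome 3) was the lowest of the 5 by counts, with 8 and 6 in *jmj26*, against 12 and 6 in Col-0. It had 4.06 and 4.12 CPM in *jmj26*, against 11.97 and 8.64 CPM in Col-0 (log2 fold change -1.35, SE 0.44, edgeR FDR 0.299). AT3TE46185 (ATLINE1_2, chromosome 3) had 11 and 9 counts in *jmj26*, against 23 and 6 in Col-0, so that the 2 Col-0 libraries differed 2.66-fold after scaling (log2 fold change -1.49, SE 0.53, edgeR FDR 0.334). It supplied 42.6% of the counts of the family ATLINE1_2. Its log2 fold change was -0.66 without Col-0 replicate 1 and -2.04 without Col-0 replicate 2. AT2TE41840 (ATLINE1A, chromosome 2) held the most counts of the 5, with 81 and 59 in *jmj26*, against 69 and 37 in Col-0. It had 41.1 and 40.5 CPM in *jmj26*, against 68.8 and 53.3 CPM in Col-0, and supplied 32.5% of the counts of ATLINE1A (log2 fold change -0.59, SE 0.22, edgeR FDR 0.354). Without *jmj26* replicate 2 the log2 fold changes of the 5 copies were between -1.55 and -0.58, and 1 of them, AT1TE10830, still had p below 0.05.

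**Figure D5:**
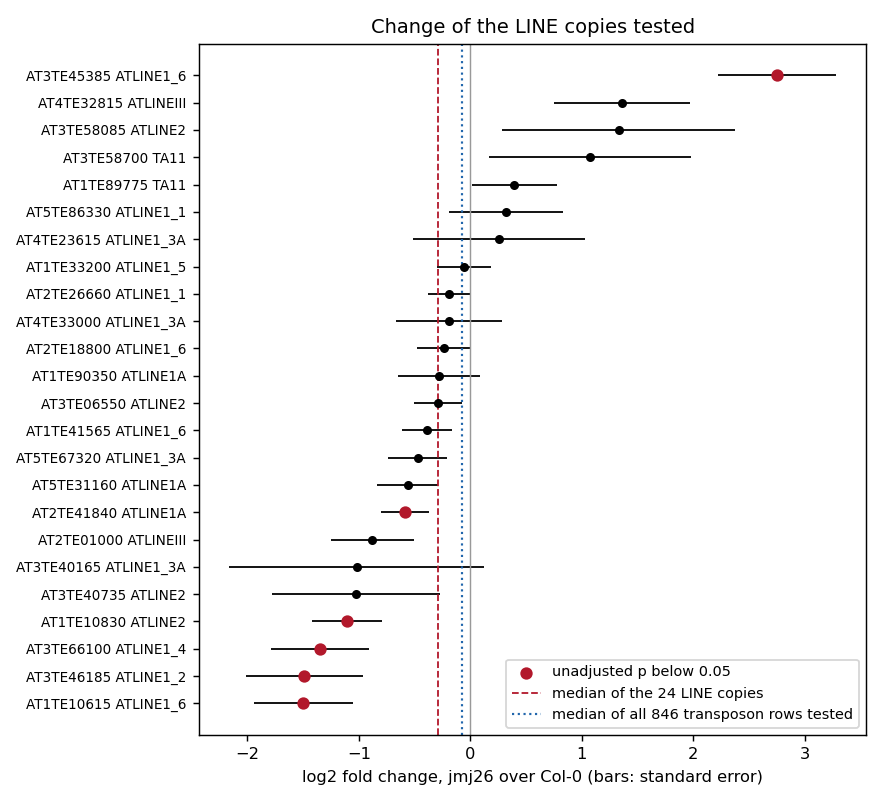
log2 fold change of *jmj26* over Col-0 (x axis) of the 24 LINE copies tested (y axis), with standard errors as bars and red points where the unadjusted p was below 0.05. Of the 24 points 17 lie below 0, the median (dashed line, -0.29) is left of that of the 846 transposon rows (dotted line, -0.077), and no copy passed FDR 0.05.

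The other copies with many counts were not separated by genotype or did not reach p below 0.05. AT5TE31160 (ATLINE1A, chromosome 5) had 27.4 and 19.2 CPM in *jmj26*, against 34.9 and 34.5 CPM in Col-0, without overlap (log2 fold change -0.56, SE 0.28, edgeR FDR 0.510). AT1TE33200 (ATLINE1_5, chromosome 1) had 33.0 and 41.2 CPM in *jmj26*, against 41.9 and 34.5 CPM in Col-0, and a log2 fold change of -0.057 (SE 0.25). AT3TE40735 (ATLINE2, chromosome 3) had 6.09 and 21.3 CPM in *jmj26*, against 39.9 and 11.5 CPM in Col-0, so the libraries of each genotype differed over 3-fold among themselves (log2 fold change -1.03, and -2.13 without *jmj26* replicate 2). AT1TE90350 (ATLINE1A, chromosome 1) had 16.7 and 19.2 CPM in *jmj26*, against 27.9 and 14.4 CPM in Col-0, with *jmj26* inside the range of Col-0. AT1TE89775 (TA11, chromosome 1) had 17.3 and 22.6 CPM in *jmj26*, against 10.97 and 20.2 CPM in Col-0, with overlap, and a log2 fold change of 0.39 (SE 0.38). The last 3 turned sign when Col-0 replicate 1 was left out.

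The rows next to the tested copies in the order of identifiers were mostly without reads. Of 48 such neighbouring rows, 32 had no count in any library, 9 were themselves LINE copies, and 11 of the 24 tested copies had no count on either side. AT2TE18800 was among these, between a Copia copy and a Helitron copy that were both at 0 in all 4 libraries. By contrast, 7 tested copies had a neighbour with at least 10 counts in all. Beside AT3TE58085 the following row, AT3TE58090 of the DNA transposon family ATENSPM6, had 124 and 179 counts in *jmj26*, against 82 and 104 in Col-0 (log2 fold change -0.31, SE 0.42). Its 2 *jmj26* libraries did not show the 9.34-fold difference of AT3TE58085. Beside AT3TE06550 (log2 fold change -0.29, SE 0.22) the preceding row was AT3TE06510 of HELITRON5. It had 79 and 55 counts in *jmj26*, against 62 and 22 in Col-0 (log2 fold change -0.29, SE 0.34). Beside AT2TE26660 (log2 fold change -0.19, SE 0.19) the following row was AT2TE26665 of HELITRONY3. It had 19 and 8 counts in *jmj26*, against 12 and 7 in Col-0 (log2 fold change -0.52, SE 0.43).

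Gene rows annotated as non-LTR retrotransposons were also at low counts. Of the 25 in the tables, 19 had no count in any library and 5 had 1 to 4 counts over the 4 libraries. AT4G02000, the Ta11-like gene whose sequence is given above, was the only 1 tested. It had 14 and 9 counts in *jmj26*, against 13 and 6 in Col-0, or 7.11 and 6.18 CPM in *jmj26*, against 12.97 and 8.64 CPM in Col-0. Both *jmj26* libraries were the lower ones, and its log2 fold change was -0.72 (SE 0.40, edgeR FDR 0.582). The gene passed the filter on low counts through its Col-0 libraries only, so this order was partly set by the filter. Genes that act on transposon silencing had too few counts for the test. There were 18 such genes, among them the DNA methyltransferase genes *MET1*, *CMT3*, *CMT2* and *DRM2* and the chromatin remodeller gene *DDM1*. Of these 18, 0 passed the filter on low counts in this fit, and 8 had at most 3 counts in every library. Their counts ranged from 0 to 15, and no test was run on them. As the strand setting of the counting is not given, these counts need not measure the RNA of the genes named. Several were counted mainly in *jmj26*. The *jmj26* libraries were also the deeper ones, and the cause of the difference was not tested. In the fit without a filter on low counts the median log2 fold change over all gene rows was 0.64. Higher counts in *jmj26* are therefore not read as a trait of silencing genes. *CMT3* had 11 and 4 counts in *jmj26*, against 0 and 0 in Col-0, and *AGO4*, an Argonaute gene of the same silencing pathway as *DRM2*, had 5 and 3 in *jmj26*, against 0 and 0 in Col-0. *ROS1*, a DNA demethylase gene, had 8 and 9 counts in *jmj26*, against 1 and 0 in Col-0, and *IBM1* had 8 and 4 in *jmj26*, against 1 and 1 in Col-0. *KYP* and *NRPE1* were less one-sided. *KYP* had 9 and 11 counts in *jmj26*, against 7 and 2 in Col-0, and *NRPE1* had 7 and 15, against 4 and 4. These silencing genes were chosen after their values were seen.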

How the data were processed

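TEcount output was used as deposited by the authors: whole counts for 36632 gene and 31189 transposon rows. Before counting, the authors had applied fastp to the reads and STAR 2.7 with Araport11, allowing many hits per read, and TEcount splits such reads over copies. A single copy can thus carry reads of its relatives, and family sums depend less on this. The labels give the molecule as genomic DNA although the protocols describe RNA.

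In edgeR 4.0.16 (R 4.3.3), rows that passed filterByExpr were scaled by TMM, and glmQLFTest was applied to a glmQLFit (legacy = TRUE) with dispersions of estimateDisp. The Benjamini-Hochberg adjustment covered all rows of a fit, and a threshold of 0.05 was used. Over the 6078 rows fitted with copies, of which 846 were transposon rows, edgeR's biological coefficient of variation came to 24.4%. Over the 5435 rows fitted with families, of which 203 were transposon families, it came to 18.6%. Fits of transposon rows alone gave larger values, 50.8% over 823 copies and 35.9% over 202 families. A standard error is the absolute log2 fold change over the root of its F statistic. Shares and expected numbers at a common depth were computed with scipy 1.17.1.

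Copies named are the 12 with the highest mean CPM, the 5 with the smallest p in each direction, and up to 5 counted in 1 genotype only, beside all families. Members and lists were chosen with earlier results of these data known. Alternatives were no filter, at least 10 counts in every library, other scalings, DESeq2 1.42.0, transposon rows alone, a replicate block and each library left out. The shares without AT3TE58085 and AT3TE58700 were added after seeing the data. Replicate numbers were not taken to pair the samples.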

Additional observations from a re-analysis of the deposited data

How the results depend on the processing

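Under the alternatives of scaling, test, rows fitted, block and libraries left out, with up to 10 for each named copy or family, the log2 fold changes kept direction and side of the threshold in 276 comparisons, turned sign in 18 and became called in 2. The settings of the filter on low counts are not in this tally. The LINE share of transposon counts was higher in *jmj26* by 0.00490 percentage points without ATLINE1_6 and by 0.0215 with only copies of at least 3 counts, and ran from -0.197 to 0.159 with libraries left out in turn. The difference in counted copies was 1.59 at 3 counts or more, 59 in the deposited counts and -8.07 at a common depth of transposon counts. Without a filter on low counts edgeR called 4 copies (AT3TE45385, AT3TE58085, AT3TE58700 and AT2TE00710, a TSCL copy with 8 and 2 counts in *jmj26*, against 5 and 26 in Col-0, named for this call). Of the 454 copies fitted there 0.881% were called, against 1.48% of transposon rows, 28 had p below 0.05 (6.17%, against 5.17%), 80 did not overlap (17.6%, against 16.5%), and the median log2 fold change was -0.083 while that of gene rows was 0.64. Under a minimum of 10 counts in each library 2 of 14 copies had p below 0.05 (14.3%, against 8.17% of transposon rows) and 5 did not overlap (35.7%, against 31.0%). DESeq2 gave 1 copy with p below 0.05 (4.17%, against 5.32%). With transposon rows alone 2 copies had p below 0.05 (9.52%, against 3.77%), the median was -0.19, AT1TE33200 had 0.0024 and the ATLINE2 family 0.084, against 0.031 with upper quartile scaling and 0.038 with library totals. Leaving out a library gave 0 to 1 called copies and 0 to 1 called families, 2 to 9 copies with p below 0.05 and medians from -0.55 to -0.32. The same fits called 0 to 67 transposon rows and 0 to 15 transposon families, and 57 to 240 transposon rows had p below 0.05. With libraries left out in turn, log2 fold changes turned sign for AT3TE58085 (-1.01 without *jmj26* replicate 2, to 2.19), AT3TE58700 (-0.93 without *jmj26* replicate 2, to 1.89), AT1TE33200 (-0.26 to 0.081 without *jmj26* replicate 1), and, without Col-0 replicate 1, AT3TE40735 (-2.13 to 0.11), AT1TE90350 (-0.72 to 0.21) and AT1TE89775 (-0.12 to 0.76). Among families they turned for TA11 (-0.43 without *jmj26* replicate 2, to 0.96), ATLINEIII (-0.54 to 0.092 without Col-0 replicate 2), ATLINE1_1 (-0.32 to 0.016) and ATLINE1_5 (-0.36 to 0.020), both without *jmj26* replicate 1, and ATLINE2 (-0.48 to 0.34) and ATLINE1_4 (-0.61 to 0.35), both without replicate 1 of either genotype. The cause was not tested.

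With the replicate number as a block 0 LINE copies passed FDR 0.05, 4 had p below 0.05 (16.7%, against 7.45% of transposon rows) and the median was -0.25. The deviations of same-numbered libraries had a correlation of -0.089 over 6078 rows and 0.13 over the 24 LINE copies, and with 2 pairs the numbers were not taken to pair the samples.

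The depth limits these comparisons: 1423 of 1447 copies were not tested, and 3 counts are 4.05 CPM in the shallowest library.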

Other observations

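Some LINE copies that did not pass the filter on low counts were uneven between libraries. Those named here were chosen after their values were seen. AT5TE72200 (TSCL) had 15 and 16 counts in *jmj26*, against 6 and 1 in Col-0. AT4TE10615 (ATLINE1A) had 10 and 0 counts in *jmj26*, against 12 and 1 in Col-0, and AT1TE34650 (ATLINEIII) had 10 and 0 in *jmj26*, against 4 and 3 in Col-0. The last 2 copies, like AT3TE40165, were without a count in *jmj26* replicate 2, the library that stood apart over all transposon rows.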
